A study of Mus musculus with 2 samples.

Results

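The 10 genes described here encode the NF-kB transcription factor subunits (Nfkb1, Nfkb2, Rel, Rela and Relb) and the IkB proteins that bind them (Nfkbia, Nfkbib, Nfkbie, Nfkbid and Nfkbiz). They were taken by symbol from a table of read counts for 39017 genes, and all 10 reached the minimum of 20 summed counts that 13880 genes passed (the measured genes). RNA came from bone marrow cells sorted as Lin- Sca-1+ c-Kit+ (LSK), a fraction enriched for blood stem cells and early progenitors. The WT library was made from a pool of 12 mice and the miR-146a-/- library from a pool of 6, all of C57BL/6J background and 10 to 14 weeks old. With 1 library per genotype no difference below has a replicate check, no p-value is given, and each statement compares these libraries. The labels give no sex of the animals and do not say how the miR-146a allele was made.

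NF-kB factors are dimers of Rel-homology proteins. In resting cells IkB proteins hold the dimers in the cytoplasm, and receptors of the Toll-like, IL-1 and TNF families activate the IKK kinases, which mark the IkB proteins for degradation and free the dimers to enter the nucleus. NF-kB in turn induces several of its own subunits and inhibitors, Nfkbia above all, which ends the response. The microRNA miR-146a is also induced by NF-kB and represses adaptors between the receptors and IKK, and mice without it are known for inflammatory changes in blood formation.

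Transcripts of 4 of the 5 IkB genes and of the subunit genes Rel and Relb were higher in the miR-146a-/- library than in WT, and the inhibitors Nfkbia, Nfkbiz and Nfkbid had the largest ratios of the 10. Calls required that the full 95% counting interval of a ratio lie past 1.5-fold. By this rule 6 of the 10 genes were higher, 0 were lower and 4 were neither, where 5.35% of all measured genes were higher and 1.53% were lower. Their median log2 ratio of miR-146a-/- over WT was 0.99, against -0.01 for all measured genes. The 6 higher genes included 2 of 5 subunits, with a subunit median of 0.60, and 4 of 5 IkB genes, with a median of 1.80. Beyond 2-fold, 5 of the 10 were higher (Nfkbia, Nfkbiz, Nfkbid, Rel and Nfkbie) and 0 lower, where 2.12% and 0.303% of all measured genes were. With 1 library per genotype the intervals include counting error alone. PCR copies of a molecule cannot be recognised without molecular identifiers, so even that error may be larger than shown.

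Levels are given as CPM, read counts divided by effective library size, after TMM scaling, which sets most genes equal between libraries. Total counts were 35069136 in WT and 22231389 in miR-146a-/-, but 5 features that carry ribosomal RNA sequence (Gm42418, Mir6236, Gm15564, Gm24270 and Lars2) took 2.27% of WT and 31.7% of miR-146a-/- counts. Scaled by total counts instead, the median log2 ratio of all measured genes moved from -0.01 to -0.83, and every ratio below shifts down with it. On that scale 3 of the 10 genes (Nfkbia, Nfkbiz and Nfkbid) were higher and 1 (Nfkb1) lower, where 1.01% of all measured genes were higher and 51.0% lower. The hairpin gene Mir146 (chr11:43374397-43374461, minus strand, GRCm38) had 0 counts in both libraries, so it gave no check of the labels. Libraries of long RNA rarely capture such short hairpins. Sex-linked genes also went with genotype: Xist was at 3.64 (log2 ratio) and the Y-linked genes Ddx3y, Uty, Eif2s3y and Kdm5d were between -2.75 and -2.33. The part of pool sex in the ratios below was not tested.

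Promoter sequence is shown first because NF-kB binds the promoters of some of its own genes. The window ran from 250 bases before to 50 bases after each start listed in RefSeq (GRCm38.p6). It was searched on both strands for the 10-base kB consensus, which reads GGG, a purine, any 2 bases, 2 pyrimidines and CC. Of the 10 genes 7 had an entry, and 5 of these (Nfkb2, Rel, Nfkbia, Nfkbie and Nfkbid) had a match, where 9.55% of 27025 genes did. Rela and Nfkbib had none in their windows, and Nfkb1, Relb and Nfkbiz had no entry. A match is a run of letters and was not measured as a binding site. The stretches nearest to the start of Nfkbia (chr12:55492648-55492696, minus strand), Rel (chr11:23771031-23771081, minus), Nfkbie (chr17:45555574-45555623, plus), Nfkbid (chr7:30422205-30422254, plus) and Nfkb2 (chr19:46304706-46304736, plus, with a second stretch at chr19:46304678-46304728) are printed 5′ to 3′ along the gene, with matched bases in capitals. Overlapping matches are joined.
Nfkbia: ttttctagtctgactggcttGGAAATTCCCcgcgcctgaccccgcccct
Rel: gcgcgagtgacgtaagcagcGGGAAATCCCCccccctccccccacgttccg
Nfkbie: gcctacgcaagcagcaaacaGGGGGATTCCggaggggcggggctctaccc
Nfkbid: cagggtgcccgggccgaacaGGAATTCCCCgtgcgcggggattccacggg
Nfkb2, nearest to the start: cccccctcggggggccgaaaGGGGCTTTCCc
Nfkb2, second stretch: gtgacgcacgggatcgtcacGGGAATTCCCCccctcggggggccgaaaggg

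The 5 genes with a match had log2 ratios between 0.60 and 2.01, and the 2 with an entry but no match, Nfkbib and Rela, were at 0.57 and 0.58. The match in Nfkbia lay 29 to 20 bases before the start. That in Nfkbie lay 106 to 97 bases before it, and the joined pair in Rel 92 to 82. In Nfkbid both stretches belonged to the second of its 3 listed starts, and the other windows of the gene held none. The groups are small and their ranges adjoin at Nfkb2 and Rela, so no order between them is read from these values.

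Among the subunits, Nfkb1 and Nfkb2 encode the precursors p105 and p100, which are cut to p50 and p52 and carry IkB-like repeats in their C-terminal parts. Reads of Nfkb1 (ENSMUSG00000028163, chr3:135584655-135691547, minus strand) numbered 8663 in WT and 3032 in miR-146a-/-, or 185.9 and 181.4 CPM. Its log2 ratio was -0.04 (95% Clopper-Pearson interval -0.10 to 0.02), at the level of the median gene. It was the lowest ratio of the 10. By total counts Nfkb1 was at -0.86 and called lower, beside a median gene at -0.83.

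Nfkb2 (ENSMUSG00000025225, chr19:46304320-46312385, plus strand) had 2613 and 1422 counts, or 56.1 CPM in WT and 85.1 in miR-146a-/-. The log2 ratio was 0.60 (0.51 to 0.69), so its interval crossed the 1.5-fold line and the gene was not called, and by total counts the sign turned to -0.22. The count ratio of Nfkb2 to Nfkb1, which no scaling affects, rose by 0.64 on the log2 scale (0.53 to 0.75). Nfkb2 shares 299 bases of its gene span with Psd on the other strand, which had 35 and 10 counts.

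Rel, Rela and Relb encode c-Rel, p65 and RelB, the subunits with a transactivation domain. Rel (ENSMUSG00000020275, chr11:23736847-23770970, minus strand) had the highest ratio of the 5 subunits. Its counts were 1513 in WT and 1328 in miR-146a-/-, or 32.5 and 79.5 CPM, a 2.45-fold difference (2.27 to 2.64). The log2 ratio of 1.29 ranked 471 of 13880. By total counts Rel was at 0.47, no longer called.

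Rela (ENSMUSG00000024927, chr19:5637483-5648130, plus strand), the partner of p50 in the most common dimer, had 4869 and 2608 counts, or 104.5 CPM in WT and 156.0 in miR-146a-/-. Its log2 ratio was 0.58 (0.51 to 0.65), not called, and -0.24 by total counts. Relb (ENSMUSG00000002983, chr7:19606217-19629438, minus strand), which pairs mainly with p52, had the fewest counts of the 10, at 600 and 380. Its CPM was 12.9 in WT and 22.7 in miR-146a-/-, for a log2 ratio of 0.82 (0.63 to 1.01), with the lower bound just past 1.5-fold. Relb was called under 5 of 10 alternatives, among them a change of prior count, which cannot alter a call. Its ratio was -0.0014 by total counts.

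**Figure D1:**
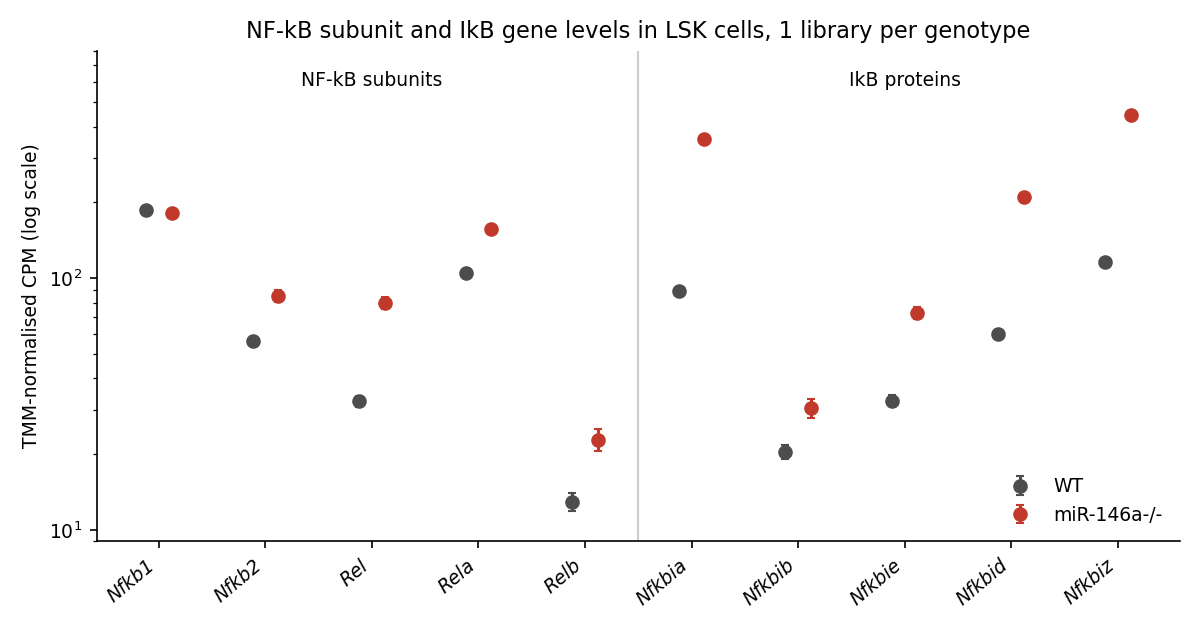
TMM-normalised CPM (log axis) of the 10 genes in the WT library (grey) and the miR-146a-/- library (red), with exact Poisson 95% intervals, many smaller than the points. Nfkbia, Nfkbid and Nfkbiz are more than 3-fold higher in miR-146a-/-, and Nfkb1 is level; by total counts Nfkb2, Rela, Relb and Nfkbib change sign.

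Because Rel is the only member whose longest annotated 3′ untranslated region holds a match to the miR-146a seed, those sites are shown beside the microRNA. The mature miR-146a-5p (RefSeq, GRCm38.p6, chr11:43374435-43374456, minus strand) has its seed, bases 2 to 8, in capitals. The sequence searched was the reverse complement of the seed, AGTTCTC, on the transcript strand. It occurred 4 times in the 5418 bases of Rel and in 12.6% of 12249 measured protein-coding genes, whose median length was 1177 bases, so the Rel region is long. The 4 sites lie at chr11:23741217-23741245, chr11:23739183-23739211, chr11:23739108-23739136 and chr11:23736992-23737020 (GENCODE M21 transcripts, minus strand) and are given in that order.
miR-146a-5p: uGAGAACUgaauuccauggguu
Rel site 1: actcagccttcAGTTCTCctgctctgcct
Rel site 2: gggaccccagaAGTTCTCcgcacctccaa
Rel site 3: ttttgctaattAGTTCTCcatttggaaaa
Rel site 4: atttttttttaAGTTCTCaagatactggt

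The other 9 members held 0 such matches, among them Nfkbia, Nfkbiz and Nfkbid, whose ratios were above that of Rel. Of the 10 genes, the 3′ untranslated regions of Rel and Nfkbia each held 1 match to the 9-base AU-rich sequence TTATTTATT, known from short-lived messages. The share over measured protein-coding genes was 8.11%. The match in Nfkbia (chr12:55489608-55489636, minus strand) reads as follows.
Nfkbia: ggaccacgttTTATTTATTgtgcttttga

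Of the cytoplasmic inhibitors, Nfkbia encodes IkB-alpha, the fast feedback inhibitor that NF-kB itself induces. Nfkbia (ENSMUSG00000021025, chr12:55489410-55492647, minus strand) had 4142 WT counts and 5983 miR-146a-/- counts, more reads in the shallower library. Its level was 88.9 CPM in WT and 358 in miR-146a-/-, a 4.03-fold difference (3.87 to 4.19). The log2 ratio of 2.01 was the highest of the 10 and ranked 144 of 13880 measured genes. It was called under all 10 alternative settings of scaling, filter, prior and adjustment, at 1.19 by total counts. The prior count does not enter the interval, so that setting could not alter a call.

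Nfkbie encodes IkB-epsilon, a slower feedback inhibitor that favours c-Rel and p65 dimers. Nfkbie (ENSMUSG00000023947, chr17:45555703-45563169, plus strand) had 1516 and 1214 counts, or 32.5 CPM in WT and 72.6 in miR-146a-/-. The fold was 2.23 (2.07 to 2.41) and the log2 ratio 1.16, which fell to 0.34 by total counts and was not called there. Nfkbib encodes IkB-beta, which in most cells is not induced by NF-kB. Nfkbib (ENSMUSG00000030595, chr7:28758251-28767512, minus strand) had 952 and 508 counts, or 20.4 and 30.4 CPM. Its log2 ratio was 0.57 (0.41 to 0.73), not called, and -0.25 by total counts. The gene span overlaps Sirt2 on the other strand by 778 bases. Sirt2 had 2241 and 831 counts and a ratio of 0.05, and without known strand use reads in the overlap cannot be told apart.

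Nfkbid and Nfkbiz encode IkB-NS and IkB-zeta, inducible nuclear proteins that bind NF-kB dimers on DNA and can repress or activate transcription. Nfkbiz (ENSMUSG00000035356, chr16:55811375-55838899, minus strand) had 5392 WT counts and 7412 miR-146a-/- counts, or 115.7 and 443.4 CPM. The difference was 3.83-fold (3.70 to 3.97), a log2 ratio of 1.94 that ranked 162. Nfkbid (ENSMUSG00000036931, chr7:30421732-30428746, plus strand) had 2802 and 3495 counts, or 60.1 and 209.1 CPM. It was 3.48-fold higher (3.31 to 3.66), a log2 ratio of 1.80 that ranked 207. Both stayed called by total counts, at 1.12 and 0.98.

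**Figure D2:**
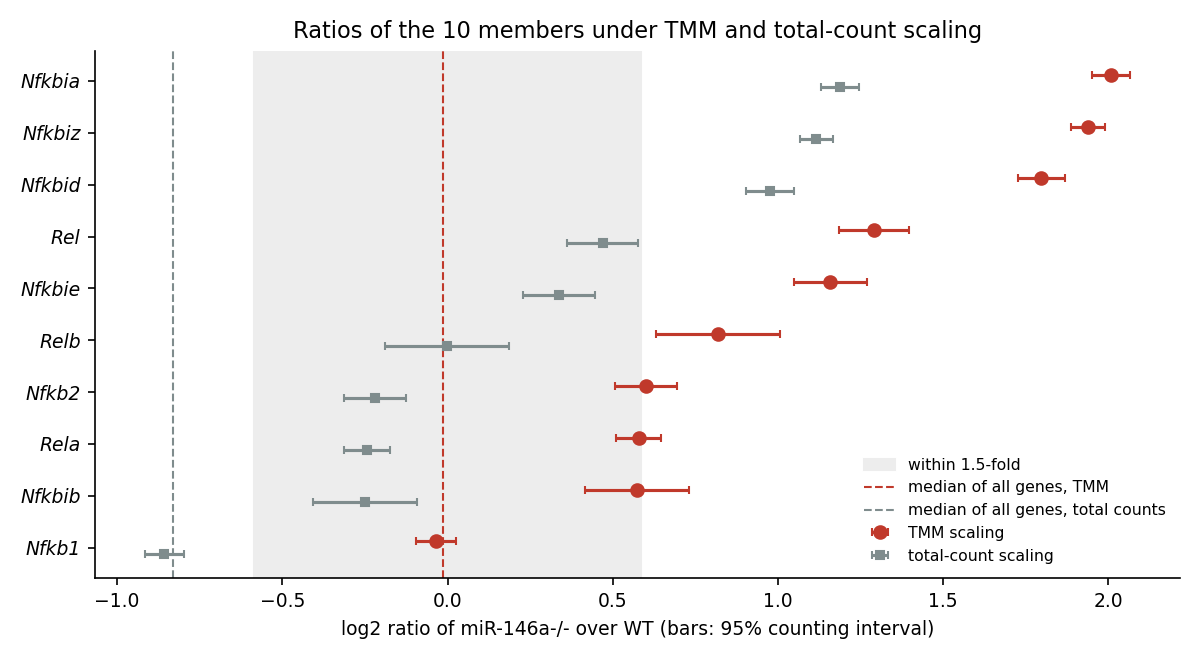
Log2 ratio of miR-146a-/- over WT for each gene with its 95% counting interval, under TMM scaling (red circles) and total-count scaling (grey squares). Dashed lines mark the median of all genes under each, and the shaded band is 1.5-fold. The 10 genes run from Nfkbia at 2.01 to Nfkb1 at -0.04 by TMM. Total-count scaling shifts all genes nearly equally, so it cannot test their order, and Nfkb2, Rela, Relb and Nfkbib change sign.

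Ratios between members within a library do not depend on how the libraries are scaled. Nfkbia had 0.85 counts per count of Rela in WT and 2.29 in miR-146a-/-, a 2.70-fold change (95% interval of the odds ratio 2.53 to 2.87). Against Nfkb1 it went from 0.48 to 1.97, a 4.13-fold change (3.90 to 4.37). Against Rel, the subunit that rose most, the change was 1.65-fold (1.51 to 1.79). The feedback inhibitor therefore gained on all 5 subunit transcripts in these counts.

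Nfkbiz and Nfkbid also gained on all 5 subunits. Of the 25 ratios of an IkB gene to a subunit gene, 20 were higher in miR-146a-/- with an interval that excluded no change, 2 were lower and 3 were neither. Both lower ratios belonged to Nfkbib, which lost against Rel (0.608-fold, 0.534 to 0.693) and slightly against Relb (0.843-fold, 0.712 to 0.996). The ratio of Nfkbib to Rela was nearly equal, at 0.196 in WT and 0.195 in miR-146a-/- (fold 0.886 to 1.12). Nfkbie to Rel changed 0.912-fold (0.821 to 1.01).

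**Figure D3:**
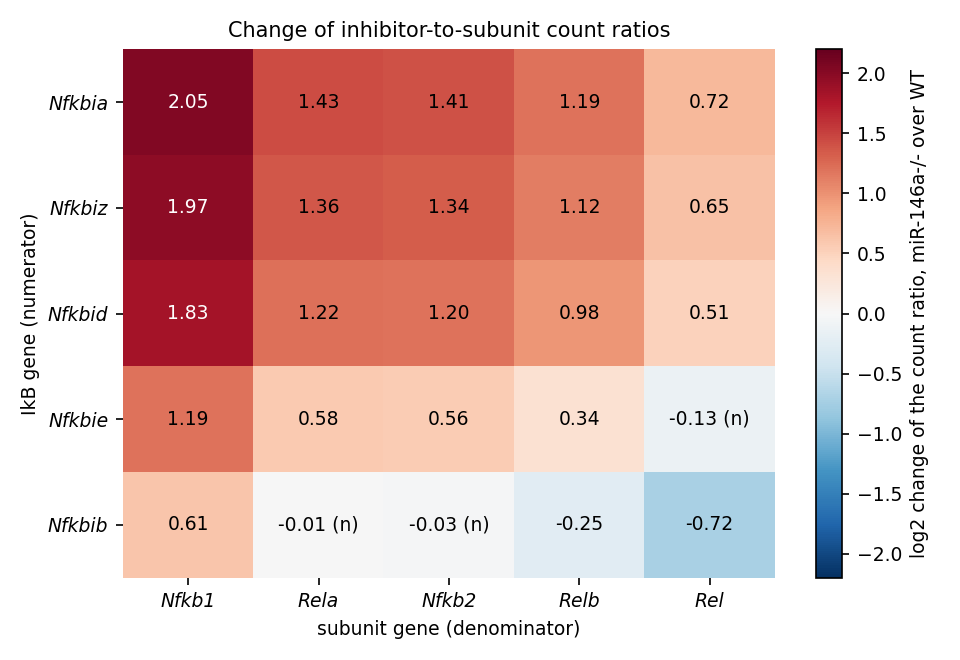
Log2 change, miR-146a-/- over WT, in the count ratio of each IkB gene (rows) to each subunit gene (columns), where (n) marks a 95% interval that holds no change. Values run from 2.05 for Nfkbia over Nfkb1 to -0.72 for Nfkbib over Rel, and they do not depend on library scaling.

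Among the subunits, Rel gained on Rela by 0.71 on the log2 scale (0.59 to 0.84) and on Nfkb1 by 1.33 (1.20 to 1.45). Nfkb2 and Rela kept the same ratio to each other within counting error, at 0.54 in WT and 0.55 in miR-146a-/- (fold 0.94 to 1.10). In the order of the log2 ratios, 4 neighbouring pairs did not differ beyond counting error, namely Nfkbia and Nfkbiz, Rel and Nfkbie, Nfkb2 and Rela, and Rela and Nfkbib. Over all 45 pairs of members, 40 intervals excluded an equal ratio.

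To compare levels between genes, CPM was divided by the length of the union of annotated exons. In WT the order per kilobase was Nfkbia (55.2 CPM per kilobase), Rela (34.0), Nfkbid (25.6), Nfkbiz (23.1), Nfkb1 (15.4), Nfkb2 (12.2), Nfkbie (10.7), Nfkbib (9.42), Rel (4.35) and Relb (3.31). No neighbours in this order overlapped in their counting intervals. In miR-146a-/- the order was Nfkbia (222.3), Nfkbid (89.1), Nfkbiz (88.4), Rela (50.8), Nfkbie (23.9), Nfkb2 (18.6), Nfkb1 (15.0), Nfkbib (14.0), Rel (10.6) and Relb (5.85). Here Nfkbid and Nfkbiz overlapped, as did Nfkb1 and Nfkbib. Rela, second in WT, stood below both nuclear inhibitors in miR-146a-/-, while Rel and Relb were the lowest in both.

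By the same measure the IkB genes held 64.1% of the summed level of the 10 genes in WT and 81.3% in miR-146a-/-, a gain of 17.1 percentage points. The summed IkB level was 1.79 times the summed subunit level in WT and 4.34 times in miR-146a-/- with this length, but 0.931 and 2.38 times with the mean length of coding transcripts, so in WT the direction turned. Nfkbia alone went from 28.6% to 41.3%, and Rela from 17.6% to 9.43%. Among the subunits, Nfkb1 went from 22.2% to 14.9% of their sum and Rel went from 6.27% to 10.5%.

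The exon union of Nfkb1 is 12061 bases, against 4149 for its longest transcript. With the longest transcript as the length, Nfkb1 was second in WT at 44.8 CPM per kilobase, and the IkB share was 55.9% in WT and 77.2% in miR-146a-/-. The gain was then 21.2 points. With the mean length of coding transcripts, Rela was highest in WT at 67.9 CPM per kilobase, followed by Nfkb1 at 58.9 and Nfkbia at 56.3, while Nfkbia stayed first in miR-146a-/- at 226.8. The share in each library thus rests on the length chosen, and the gain was positive with all 3 lengths tried. A gene has the same length in both libraries, so the choice only reweights the same ratios and is no independent check of the gain.

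**Figure D4:**
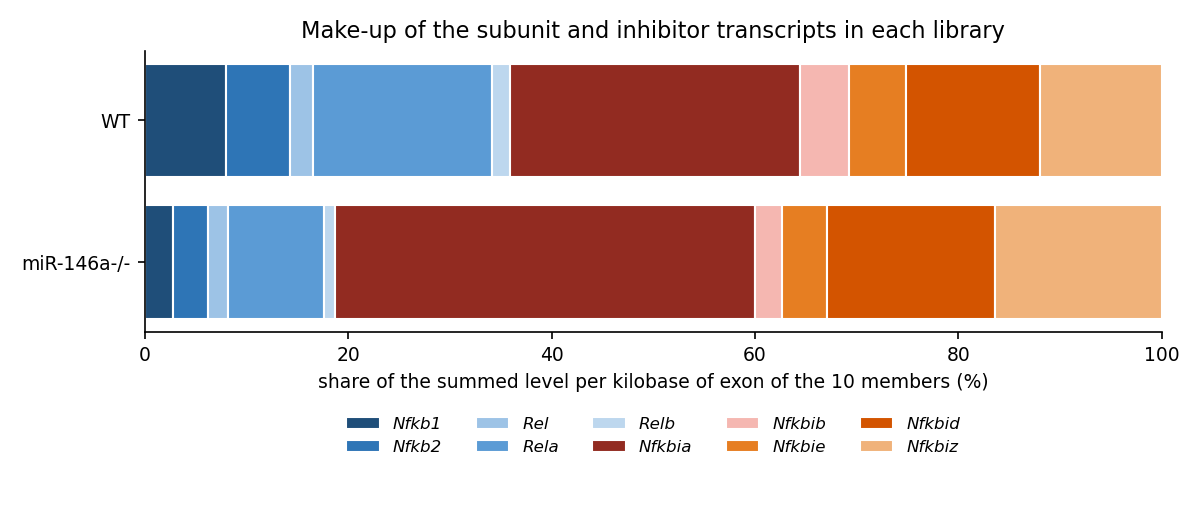
Share of each gene (colours; blue for subunits, red to orange for IkB genes) in the summed CPM per kilobase of the 10 genes, 1 bar per library, using the exon union as length. IkB genes make up 64.1% of the WT bar and 81.3% of the miR-146a-/- bar.

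Genes of the IKK complex, of the IkB ligase and of the p100 pathway had median ratios near that of all genes. Toll-like and IL-1 receptors and the adaptors that miR-146a represses were not in these lists. Of 11 genes of the IKK complex and its upstream kinases, 1 was higher, 0 were lower and the median log2 ratio was 0.02. Across all measured genes 5.35% were higher and 1.53% lower. The IKK subunit genes Chuk, Ikbkb and Ikbkg were at -0.09, 0.02 and -0.21. Map3k14, which encodes the kinase NIK of the p100 pathway, was at 0.25. Map3k8, whose kinase is held by p105, was the higher gene, with 616 and 406 counts and a log2 ratio of 0.88, Ikbke was at 0.40 and Tab1 was lowest at -0.37.

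Genes that ubiquitinate IkB proteins had 0 of 10 called and a median of -0.13, from Btrc, the substrate receptor of the ligase, at 0.40 to Rbx1 at -0.66 and Nedd8 at -0.65. Other IkB-like and NF-kB binding proteins had 0 of 9 called and a median of -0.09. Among them Bcl3, another atypical nuclear IkB, had 1270 and 539 counts and a ratio of 0.24 (not called). Receptors and brakes of the p100 pathway had 2 of 8 measured genes higher, 0 lower and a median of -0.07. The TMM shares over all measured genes were 5.35% higher and 1.53% lower. Tnfrsf12a (161 and 194 counts) was at 1.74 and Birc3, itself an NF-kB target, at 0.79, while Traf2 and Traf3 were at -0.50 and -0.31. By total counts these 4 lists had medians between -0.95 and -0.80 and from 5 to 8 lower genes in each. On that scale the median gene was at -0.83 and 51.0% of all measured genes were lower.

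NF-kB response genes other than the members had 18 of 26 measured genes higher, 0 lower and a median of 1.27. Across all measured genes 5.35% were higher and 1.53% lower by TMM scaling. Cxcl2 (3.89), Cxcl10 (3.46) and Tnfaip3 (2.58) had the highest ratios with at least 200 counts. Tnf was at 2.24, and with the same minimum Sod2 (-0.10), Xiap (-0.04) and Cflar (0.16) were lowest. Lcn2, with 73 and 13 counts, was at -0.996. By total counts 11 were higher, 3 lower and the median was 0.45, where 1.01% of all measured genes were higher and 51.0% lower. This list was chosen with earlier results of these libraries known, so its direction is a description.

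**Figure D5:**
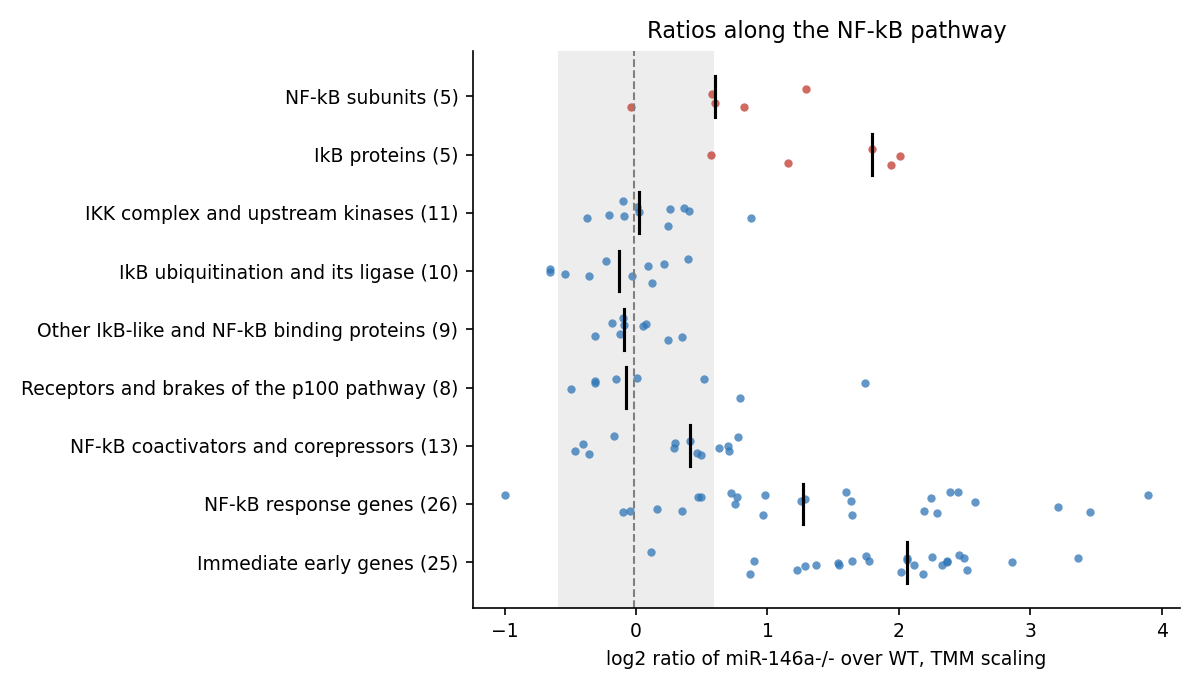
Log2 ratio of miR-146a-/- over WT (TMM scaling) for each measured gene of the subunits, the IkB genes and 7 lists, with list medians as black bars, the 1.5-fold band shaded and the median of all genes dashed. IKK, ligase, IkB-like and p100 pathway genes centre near 0, and the IkB genes have a median of 1.80, beside 1.27 for response genes and 2.06 for immediate early genes; by total counts all values lie about 0.82 lower and the first 4 lists have negative medians.

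Immediate early genes, transcribed soon after a stimulus and also on tissue handling, moved with the members. Of 25 measured, 24 were higher and 0 were lower, where 5.35% of all measured genes were higher and 1.53% lower by TMM scaling. The median was 2.06, and their summed level was 5911 CPM in WT and 22603 in miR-146a-/-. Egr2 (3.37), Egr3 (2.86) and Klf4 (2.52) had the highest ratios, and Myc was at 0.12. By total counts 19 were higher and 1 lower, where 1.01% of all measured genes were higher and 51.0% lower. The part of handling in the ratios of the IkB genes was not tested. Among 10364 other protein-coding genes with at least 200 counts, those nearest in log2 ratio to Nfkbia over the 2 libraries were Atf3 (2.02), F830016B08Rik (1.99) and Cd69 (2.03). Cd69 is an early activation antigen, Atf3 belongs to the immediate early list, and F830016B08Rik is in none of the lists. Nearness in 1 ratio over 2 libraries is no measure of shared regulation, which was not tested.

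The libraries held the transcripts that define LSK cells. Kit had 26003 and 12167 counts and Ly6a, which encodes Sca-1, 3113 and 1248. Of 12 LSK markers 1 was higher (Gata2, 0.97) and 0 lower, with Procr at -0.39 and Cd48 at -0.52. The TMM shares over all measured genes were 5.35% higher and 1.53% lower. By total counts 0 were higher and 4 lower, where 1.01% of all measured genes were higher and 51.0% lower. Counts of Cd3d, Cd3e, Cd3g, Cd8a, Alas2, Igll1, Marco and Lepr were 0 in both. Other members of the same lists had many counts, among them Padi4 (4134 and 1735), Lyz2 (2933 and 860), Pdgfrb (2530 and 960), Nkg7 (1602 and 530), Lck (1054 and 255) and Cd79b (757 and 263).

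Markers of other cell types moved in both directions. Their TMM calls stand beside 5.35% of all measured genes higher and 1.53% lower. Neutrophil markers had 3 of 9 measured lower and a median of -0.996, with Ngp at -1.38, and a summed level of 104.7 CPM in WT and 111.8 in miR-146a-/-. Padi4 made up most of that sum, and the other 11 genes summed to 15.97 CPM in WT and 8.02 in miR-146a-/-. Monocyte and macrophage markers had 1 of 11 higher and a median of 0.64, with sums of 90.7 and 95.2 CPM. Lyz2 (-0.29) made up much of these sums, and the other 13 genes summed to 27.8 CPM in WT and 43.8 in miR-146a-/-. T and NK cell markers had 3 of 7 higher (by total counts 0 higher and 3 lower) and a median of 0.92, with sums of 63.8 and 58.9 CPM. The 3 had few counts: Cd4 (86 and 68), Cd247 (56 and 58) and Gzmb (9 and 13). Of the 7 ratios 4 were positive and 3 negative, the latter with Lck (-0.57) and Nkg7 (-0.12) among them. B and plasma cell markers had 1 of 4 lower (Jchain, -1.35) and sums of 53.6 and 55.9 CPM. Stromal and endothelial markers had 1 of 7 higher (Vwf, 0.79) and sums of 186.2 and 247.9 CPM. None of 3 dendritic and 6 erythroid markers was called, with sums of 50.6 and 54.9 CPM and of 32.3 and 33.7 CPM. By total counts 0 genes of these 7 lists were higher, and between 1 and 5 were lower in each. On that scale 1.01% of all measured genes were higher and 51.0% lower. By TMM scaling, as for the sums above, the 10 NF-kB and IkB genes went from 709.6 to 1638 CPM. Their raw counts were 33062 of 35069136 in WT and 27382 of 22231389 in miR-146a-/-, so the difference is smaller by total counts. The part of these cells in the ratios was not tested, and in bulk RNA a change in the share of a cell type cannot be told apart from a change in RNA per cell.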

How the data were processed

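The authors deposited whole-number read counts per Ensembl gene, not normalised. Per the file headers, junction reads were aligned on the genome and duplicates flagged. STAR 2.5.3a, Salmon 0.9.0 and mm10 appear in the submitters' processing notes. The counting program, its strand setting and its annotation were not given in the sources used here. Per the labels' protocols, total RNA was ribodepleted.

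Of 39017 identifiers, 37693 had a GENCODE M21 symbol. Effective sizes came from TMM in edgeR 4.0.16 (R 4.3.3) over genes with at least 20 summed counts; edgeR served for scaling only. Log2 ratios used a prior count of 0.5, with Clopper-Pearson intervals (Python 3.11.15, scipy 1.17.1). The calls were tested on simulated Poisson counts. These held no spread between animals and no difference in ribosomal share between libraries, so such effects were not covered. Named genes were all members, 7 fixed pathway genes, the 3 genes nearest to Nfkbia, and in each list the 3 highest and 3 lowest with at least 200 counts; other marker genes were named after their values were seen, and a few listed genes are not reported here. Members and lists were chosen with earlier results of these data known. Alternatives were other scalings (DESeq2 1.42.0 among them), filters, priors, thresholds, lengths, thinning of WT counts, and correction for GC content and length of transcripts.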

Additional observations from a re-analysis of the deposited data

How the results depend on the processing

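By total counts 3 members were called higher, 1 was called lower, their median was 0.17, and Nfkb2 (-0.22), Rela (-0.24), Relb (-0.0014) and Nfkbib (-0.25) reversed. This scaling moves the median gene to -0.83. With at least 200 counts Nfkb1 was at 0.0014, a change of sign within its interval. A change of scaling shifts all genes nearly equally and cannot test their order. The order did change with length and GC adjustment, where Nfkb2 (0.542) fell below Rela (0.547) and Nfkbib (0.554). It also changed with thinned WT counts, where Rela (0.615) stood above Nfkb2 (0.584). By total counts of protein-coding genes the member median was 0.83. Over all genes, 742 higher and 212 lower calls (77.8% higher) became 140 and 7077 (1.94%) by total counts and 496 and 574 (46.4%) by protein-coding totals. They became 740 and 322 without a filter, 491 and 130 with at least 200 counts, 294 and 42 beyond 2-fold, and 1750 and 1109 by the ratio alone. A filter changed the genes counted and the TMM sizes. The new sizes shifted log2 ratios by -0.067 without a filter and by 0.037 with at least 200 counts. The part of each change in the calls was not tested. With the longest transcript as length, IkB shares were 55.9% in WT and 77.2% in miR-146a-/-, a gain of 21.2 points, and with mean coding-transcript length 48.2%, 70.4% and 22.2 points. Of 100 member ratios under alternatives 88 kept their direction and call, where a change of prior count cannot alter a call. Relb was not called under total counts, protein-coding totals, no filter, length and GC adjustment or thinning. No paired analysis was possible because each genotype has 1 library. Depth limits Relb most, with 980 counts in all.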

Other observations

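Coactivators and corepressors of NF-kB had 3 of 13 genes higher and 0 lower, with a median log2 ratio of 0.41. Across all measured genes 5.35% were higher and 1.53% lower by TMM scaling. Crebbp, which encodes the acetyltransferase CBP, was at 0.78, from 13834 WT counts and 8499 miR-146a-/- counts. The nuclear receptor coactivator gene Ncoa1 was at 0.70. The histone deacetylase genes Hdac2 and Hdac3 were at -0.46 and -0.41, neither of them called. By total counts 0 of the 13 were higher, 4 were lower and the median was -0.41. On that scale 1.01% of all measured genes were higher and 51.0% lower.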
